A study of Mus musculus with 104 samples.

Results

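The nuclear genes of the mitochondrial respiratory chain were followed through the cerebral cortex of 13 groups of control mice. Members were taken by symbol from the RefSeq counts (Nduf genes of the A, B, C, S and V series, Sdha to Sdhd, Uqcr genes, Cyc1, Cox4 to Cox8 genes and Atp5 genes, with Cox7b2 left out) and had to reach a mean of 1 CPM (a gene's read count per M reads of its library). Of 24060 genes in the table, 84 matched the symbols and 79 reached that level. They comprised 34 genes of complex I, 4 of complex II, 9 of complex III, 15 of complex IV (Ndufa4 and Ndufa4l2 included) and 17 of complex V.

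RNA was sequenced from dissected cortex of wild type C57BL/6 mice aged 6 months. The labels sort the libraries, 8 per group, into 13 groups called Tbc1d8, Gsg1l, Zswim6, Rgs9, Rasgef1a, Ppp1ca, Pcdh20, Morf4l1, Kdm3b, Hrk, Ece2, Dach1 and Arpp19. Each group held 4 female and 4 male mice, and the design text calls these groups lines. No animal carried a labelled mutation, so a line here is a set of wild type controls named after a gene, and since the labels tag the same groups as batches, line and batch cannot be told apart. The labels do not say which mice were related. In each line, replicates 1 to 4 below are female and 5 to 8 male, numbered in accession order.

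The respiratory chain passes electrons from NADH (complex I) and succinate (complex II) through coenzyme Q, complex III and cytochrome c to oxygen at complex IV, and the proton gradient that results drives ATP synthesis by complex V. The catalytic centres of complexes III and IV and the membrane arm of complex I include subunits encoded by mitochondrial DNA, while the genes followed here are transcribed in the nucleus and their proteins imported. Neurons rely on oxidative phosphorylation for most of their ATP.

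Upstream sequences are printed for 6 members that were called in both of the lines that stood apart, to show what members that were called together hold there: Atp5j2, Cox8a, Ndufa8 and Cox6a1 were higher there, and Atp5b and Sdha were lower. Each stretch is from RefSeq on GRCm38.p6, runs 5′ to 3′ in the direction of transcription, and is 150 bases long, of which the last 25 follow the annotated start. Capitals mark letters of a searched motif that lies wholly inside the stretch, on either strand: NRF1 (GCGCANGCG), GABP of the ETS family (CCGGAAG), YY1 (AAGATGG), an ERR site (TCAAGGTCA), the CCAAT box (CCAAT), the GC box of SP1 (GGGCGG) and the TATA box (TATAAA). Overlapping matches were counted for each motif.
Atp5j2, chr5:145191517-145191666, minus strand: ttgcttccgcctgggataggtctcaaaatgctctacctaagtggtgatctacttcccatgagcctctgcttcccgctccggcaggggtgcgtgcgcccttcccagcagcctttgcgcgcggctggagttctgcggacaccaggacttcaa
Cox8a, chr19:7217592-7217741, minus strand: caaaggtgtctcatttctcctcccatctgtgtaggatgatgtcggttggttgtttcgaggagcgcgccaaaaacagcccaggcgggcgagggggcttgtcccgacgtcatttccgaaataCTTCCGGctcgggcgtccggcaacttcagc
Ndufa8, chr2:36049314-36049463, minus strand: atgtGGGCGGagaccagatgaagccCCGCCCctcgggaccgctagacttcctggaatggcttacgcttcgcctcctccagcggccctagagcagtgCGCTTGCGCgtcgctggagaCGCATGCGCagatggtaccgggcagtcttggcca
Cox6a1, chr5:115348934-115349083, minus strand: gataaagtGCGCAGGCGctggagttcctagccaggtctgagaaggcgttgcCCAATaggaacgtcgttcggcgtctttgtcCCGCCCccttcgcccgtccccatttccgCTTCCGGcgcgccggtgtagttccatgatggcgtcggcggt
Atp5b, chr10:128083182-128083331, plus strand: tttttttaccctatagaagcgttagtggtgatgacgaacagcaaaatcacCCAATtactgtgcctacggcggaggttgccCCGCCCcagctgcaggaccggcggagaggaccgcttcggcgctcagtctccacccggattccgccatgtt
Sdha, chr13:74350216-74350365, minus strand: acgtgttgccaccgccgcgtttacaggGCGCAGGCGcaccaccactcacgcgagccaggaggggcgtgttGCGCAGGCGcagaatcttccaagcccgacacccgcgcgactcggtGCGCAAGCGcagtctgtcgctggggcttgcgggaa

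The Ndufa8 stretch holds a pair of NRF1 matches and a pair of GC boxes, and the Sdha stretch holds 3 NRF1 matches in its 150 bases. Cox8a and Cox6a1 each hold a GABP match near the start. The Atp5j2 stretch holds none of the 7 motifs, while its whole window holds CCAAT and YY1 letters. The gene position given below for Atp5j2 extends past the 5′ end of this stretch, so the letters found depend on the start used. The whole windows of 300 bases (250 before and 50 after the start) were found for 64 of the 79 members, 3 of them under a synonym and 6 with more than 1 start. NRF1, a regulator of respiratory genes, had its letters in 19 of the 64 (29.7%), against 7.03% of 27025 genes in the table. GABP letters stood in 25% of the members against 9.93% of all genes, YY1 letters in 18.8% against 7.28% and the ERR site in 3.12% against 0.466%. The CCAAT box (43.8% of members, 41.1% of all genes) and the GC box (40.6% and 38.2%) were at similar shares, and the TATA box was in 7.81% of members and 15.7% of all genes. NRF1 letters were found in 7 of 30 matched genes of complex I, 2 of 3 of complex II, 2 of 5 of complex III, 1 of 10 of complex IV and 7 of 16 of complex V. Between the 9 matched promoters of members higher in Tbc1d8 (tested below) and the 7 of members lower there, GABP letters stood in 6 and 0, CCAAT in 6 and 4, the GC box in 4 and 2, NRF1 in 3 and 2, YY1 in 1 and 1, and the ERR and TATA letters in 0 and 0. For Gsg1l, with 11 higher and 3 lower members matched, GABP letters stood in 5 and 0, CCAAT in 6 and 2, the GC box in 6 and 1, NRF1 in 3 and 1, YY1 in 3 and 1, TATA in 1 and 0 and ERR in 0 and 0. These splits were not tested. These are matches of letters in a window and not measured binding.

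Per transcript length, complex IV had the highest levels of the chain. In the deposited RefSeq FPKM (fragments scaled for transcript length and library size), the median member of complex IV was at 126, that of complex V at 112, of complex III at 103, of complex II at 65.9 and of complex I at 64.2. Atp5b, the catalytic beta subunit of ATP synthase, was the highest member at 535 ± 20.5 FPKM (SD over the 8 libraries of all 13 lines, as for all levels below), followed by Cox8a, a small membrane subunit of cytochrome c oxidase, at 463 ± 36.1 and Cox4i1 at 425 ± 18.5. The F1 alpha subunit Atp5a1 was at 322 ± 12.2 FPKM. Complex I spanned from Ndufb9, an accessory subunit, at 157 ± 7.78 down to Ndufb4 at 7.42 ± 0.972.

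The core subunits of complex I listed here lay on both sides of its median of 64.2 FPKM. Ndufv1 was at 91.7 ± 3.61 FPKM, Ndufs7 at 78.7 ± 3.89, Ndufv2 at 51.4 ± 2.94, Ndufs1 at 49.4 ± 2.54, Ndufs8 at 45.5 ± 2.82 and Ndufs3 at 40.03 ± 1.92 (SD). Neighbours in that order from Ndufv2 to Ndufs8 differed by less than the sum of their SDs. In complex II the flavoprotein Sdha was at 140 ± 4.28 FPKM and the iron-sulphur subunit Sdhb at 80.1 ± 3.55. Its membrane anchors Sdhd (51.8 ± 2.43) and Sdhc (49.9 ± 2.62) differed by less than their spread. In complex III the hinge protein Uqcrh led at 194 ± 9.56 FPKM, cytochrome c1 (Cyc1) was at 103 ± 4.26, the Rieske protein Uqcrfs1 at 59.2 ± 2.09 and Uqcrb lowest at 40.9 ± 2.80.

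**Figure D1:**
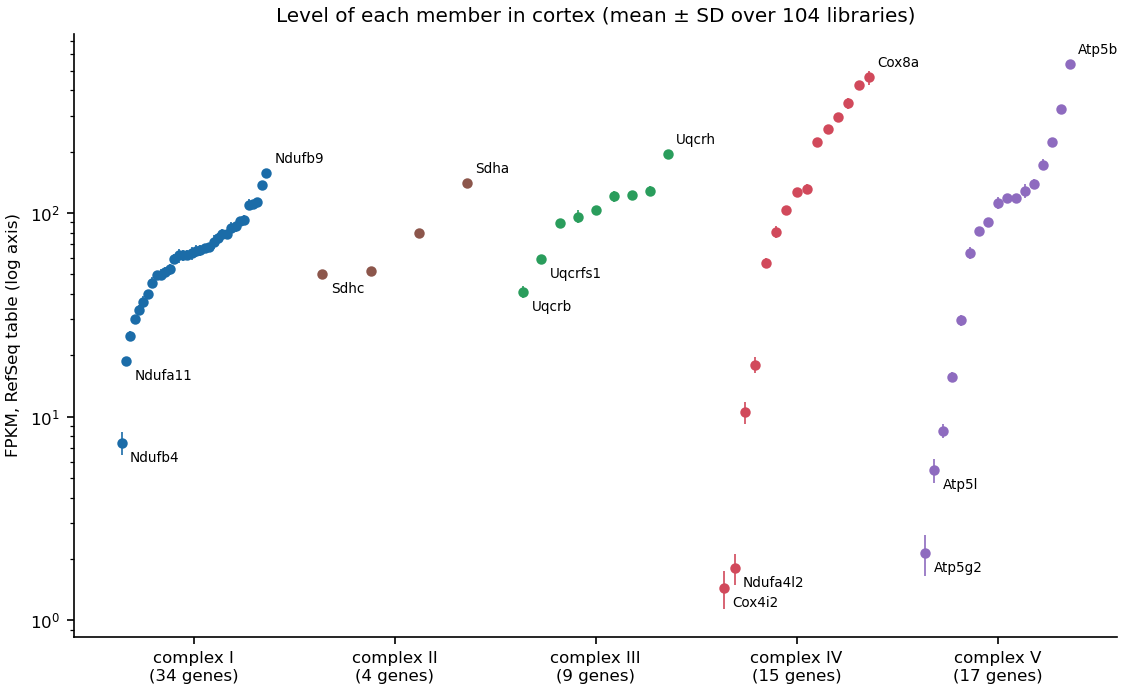
Mean FPKM of each of the 79 members on a log axis, ordered by level within each complex, with SD over all libraries. The highest points are Atp5b at 535 and Cox8a at 463, and the lowest is Cox4i2 at 1.44.

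Where a subunit has isoforms, 1 was the highest in the cortex in each set, most narrowly for Cox7a2 over Cox7a2l. Cox4i1 was at 425 FPKM and its hypoxia- and lung-associated isoform Cox4i2 at 1.44 ± 0.306. Cox6a1 was at 345 ± 21.8 and the heart and muscle isoform Cox6a2 at 10.5 ± 1.31. Cox6b1 was at 257 ± 12.9 and the testis isoform Cox6b2, which missed the level for members, at 1.33 ± 0.330. Cox7a2 was at 126 ± 5.98, Cox7a2l, which takes part in supercomplexes, at 56.7 ± 3.30, and the muscle isoform Cox7a1 at 2.67 ± 0.643. Cox8a stood against Cox8b at 0.3602 ± 0.240. Of the 3 genes for the c-ring of ATP synthase, Atp5g3 was at 224 ± 9.11 FPKM, Atp5g1 at 29.7 ± 1.95 and Atp5g2 at 2.14 ± 0.486. Ndufa4 was at 297 ± 12.6 and Ndufa4l2 at 1.80 ± 0.307. The list of muscle markers summed to 14.4 CPM in the median library of the 11 lines other than Tbc1d8 and Gsg1l (11.99 to 17.6), and striatal markers to 187 CPM (170 to 209).

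Cox4i2 was just inside the limit at 1.04 CPM, and Cox7a1 (0.977), Cox6b2 (0.818), Ndufs5 (0.452), Cox8b (0.131) and Cox8c (0.00105 CPM) were outside it. Ndufs5, an accessory subunit of complex I, was at 0.888 ± 0.267 FPKM in the RefSeq table and at 13.5 ± 0.873 in the Ensembl table (SD over all libraries), so its place outside the set depends on the annotation. Atp5s and Atp5sl match the symbols of complex V, but both are related to factors known under the newer names Dmac2l and Dmac2 and are not structural subunits of ATP synthase. Atp5s was at 8.52 ± 0.671 FPKM and Atp5sl at 15.7 ± 0.839.

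The order of levels depended on the annotation. In the deposited Ensembl FPKM, medians were 78.7 in complex IV, 59.4 in complex III, 41.2 in complex II, 38.4 in complex I and 27.6 in complex V, which thus moved from the second to the last place. The RefSeq value was the higher for 78 of 79 members, by a median factor of 1.66, against 1.33 over 12343 genes. It exceeded the Ensembl value more than 2-fold for 35 members (44.3%, against 18.1% of all genes). The factor ran from 0.943 (Ndufa1) to 9.49 (Ndufb2, at 61.9 ± 3.87 and 6.52 ± 0.336 FPKM). Atp5j2, the f subunit of the membrane part of ATP synthase, was at 128 ± 9.98 in RefSeq and 17.7 ± 1.28 in Ensembl FPKM, and Cox6c at 222 ± 10.6 and 30.2 ± 1.34. Cox8a, with a factor of 1.104, was at 419 ± 32.2 in the Ensembl table and the highest member there. Across the 79 members, which share both library and depth in the 2 tables, Spearman's rho between the tables was 0.77. Levels of members that overlap a gene on the same strand (11) or the other strand (29 members), or that have near-identical copies elsewhere, are uncertain because the counting mode and strand setting are not given in the sources used here.

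**Figure D2:**
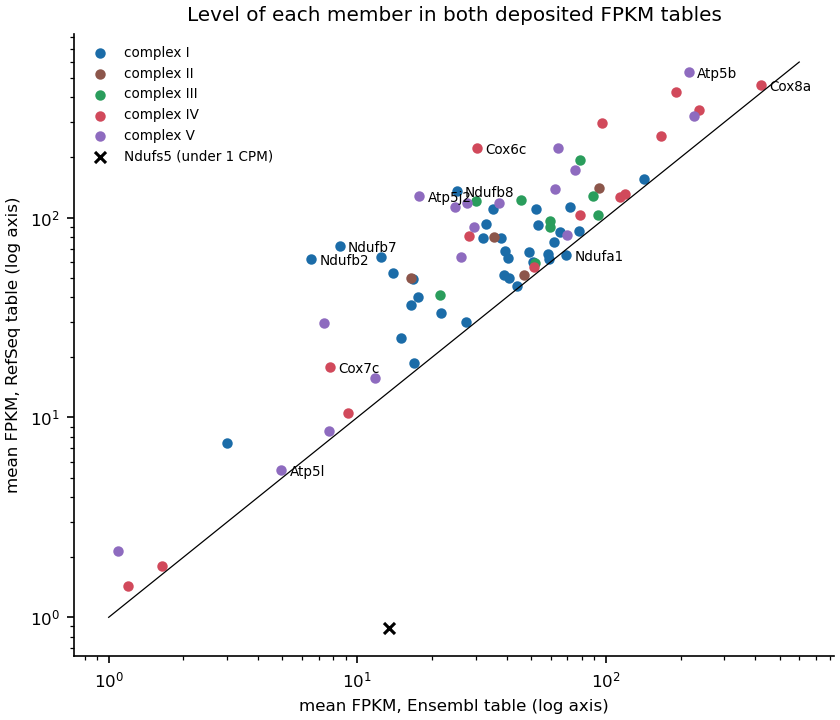
Mean FPKM of each member in the Ensembl table (x axis) and the RefSeq table (y axis), both on log axes, coloured by complex, with the line of equal values. Members far above the line include Ndufb2 (9.49-fold), Ndufb7 and Atp5j2, and the cross is Ndufs5, which lies below it.

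The median library held 28.4 M reads and the others 23.9 to 33.5 M, except for Kdm3b replicate 2 at 3.39 M. Xist and Y-linked reads went against the labelled sex in 3 libraries. All 8 neuron, 7 astrocyte, 7 oligodendrocyte, 7 microglia and 7 endothelial markers were found, and without the 3 libraries the counts given below were 21 members in Tbc1d8, 16 in Gsg1l and 5 between the sexes. No 2 libraries of the same line and sex agreed within sampling noise (smallest chi-square per degree of freedom 2.67 over 156 pairs). In bulk tissue, fewer cells of a type and less RNA per cell cannot be told apart.

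Members varied slightly less between mice of the same line and sex than all genes of at least 10 CPM, which were not matched for level. Over the 72 members with at least 10 CPM, the SD of log2 CPM within line and sex had a median of 0.072. It was 0.080 over the members of complex I alone, and 0.087 over 9893 genes of at least 10 CPM. The tightest member was Sdha at 0.038 and the widest Ndufb7 at 0.11. Each library was also given a score per complex, the median over its members of log2 CPM minus the gene's mean over all libraries. The quartiles of the scores were -0.029 and 0.026 for complex I, -0.029 and 0.031 for complex II, -0.025 and 0.021 for complex III, -0.029 and 0.025 for complex IV, and -0.030 and 0.024 for complex V.

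A single library stood apart from all others in all 5 complexes, Gsg1l replicate 5, a male. Its scores were 0.22 in complex I, 0.20 in complexes II and III, 0.26 in complex IV and 0.21 in complex V, while the next highest library of each complex was between 0.086 and 0.13. It had the highest CPM of all libraries for 50 of the 79 members. Its depth was 27.8 M reads. The summed Ensembl FPKM of the members was 5503 in it against at most 4769 in any library of the other 11 lines, while the 13 mitochondrially encoded subunits summed to 30489 FPKM, which ranked 23 from the highest. Over all genes tested, the same score was 0.019 in it, also the highest of all libraries, with the next at 0.010. Its neuron (16543 CPM), striatal (220 CPM) and muscle markers (18.5 CPM) were above the range of all lines other than Gsg1l, and its astrocyte markers (5155 CPM) below it. Their part in its high values was not tested, and the called members of Gsg1l are given with and without this library below.

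The question of whether wild type controls of different lines differ in these genes was asked first of all 13 lines at once. By the quasi-likelihood F-test of edgeR, adjusted over 15723 genes by Benjamini-Hochberg, 17 of the 79 members differed between lines at an adjusted p under 0.05, and 9.61% of all genes tested did. They comprised 6 of 34 members of complex I (among them Ndufs1, Ndufa8, Ndufa2, Ndufa10 and Ndufb8), 2 of 4 of complex II (Sdha and Sdhb), 0 of 9 of complex III, 5 of 15 of complex IV (Cox8a, Cox6a1, Cox6b1, Cox4i1 and Cox6a2) and 4 of 17 of complex V (Atp5j2, Atp5b, Atp5a1 and Atp5e). At an unadjusted p under 0.05 complex III had 2 of 9. The smallest adjusted p were 4.21e-07 for Atp5j2 and 6.21e-07 for Cox8a. The median F of the members was 1.21, and that of all genes 1.28.

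Tested line by line, members were called in 2 lines, Tbc1d8 and Gsg1l. Against the mean of the other 12 lines, 22 members were called in Tbc1d8 and 17 in Gsg1l. In each of the other 11 lines 0 members passed by the same edgeR test and by DESeq2, with 0 to 13 members per line at an unadjusted p under 0.05 by edgeR. The smallest adjusted p there was 0.178, for Ndufa2 in Kdm3b, and between 0 and 26 genes of all those tested were called per line. In simulated counts with these means and depths, the test of Tbc1d8 recovered 88% of the genes set to a 1.2-fold change (all drawn from genes with high counts), 72% at 1.1-fold and 20% at the smallest fold simulated, which was below 1.1. Most called differences given below were under 1.1-fold, so most differences of their size could be missed.

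**Figure D3:**
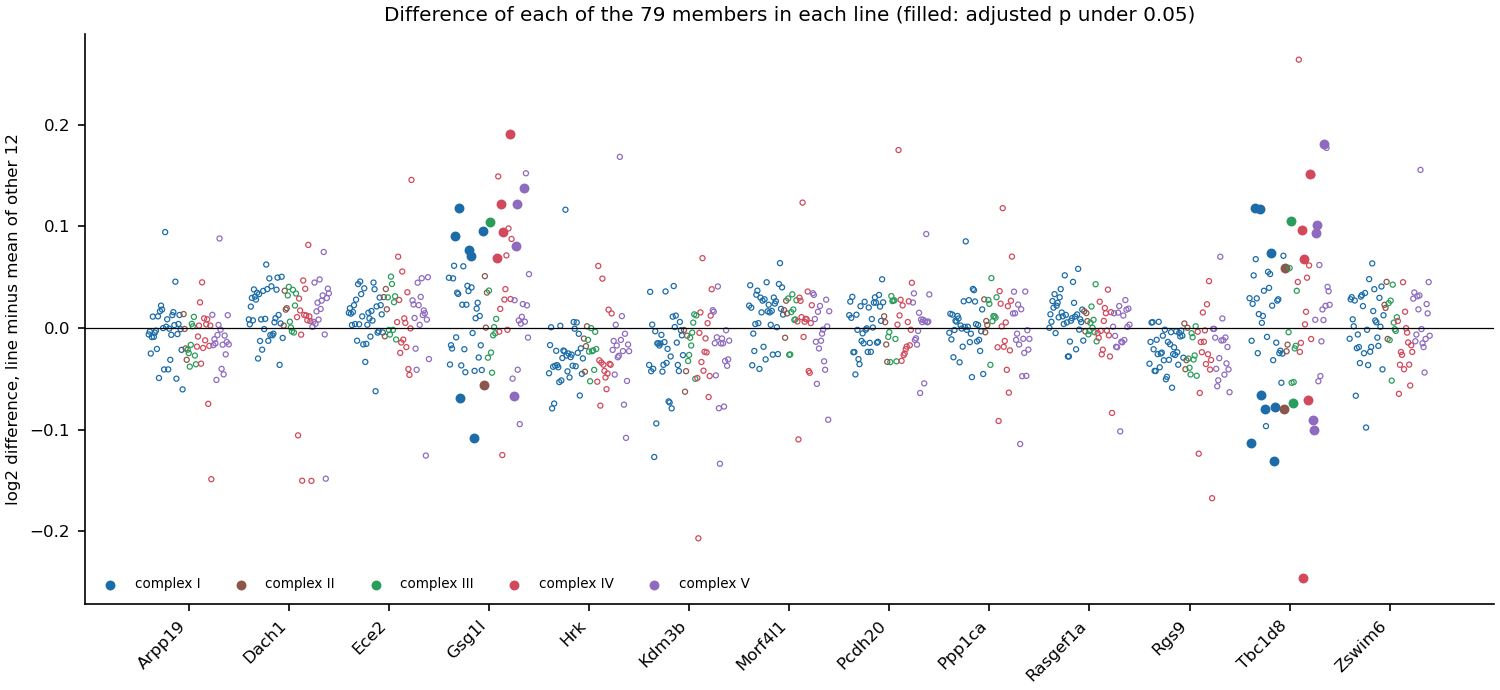
Log2 difference of each of the 79 members in each line from the mean of the other 12, coloured by complex. Filled points passed an adjusted p of 0.05, 22 of them in Tbc1d8 and 17 in Gsg1l, and open points did not.

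In Tbc1d8 the members moved in both directions and by small amounts. Of 79 members 11 were higher and 11 lower, against 5.66% of all genes higher and 6.79% lower. The count per complex was 3 higher and 5 lower in complex I, 1 and 1 in complex II, 1 and 1 in complex III, 3 and 2 in complex IV, and 3 and 2 in complex V. The median log2 difference of the members was 0.014 and that of all genes 0.0050.

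In Gsg1l 13 members were higher and 4 lower, against 4.86% of all genes higher and 5.58% lower. By complex, 5 were higher and 2 lower in complex I, 0 and 1 in complex II, 1 and 0 in complex III, 4 and 0 in complex IV, and 3 and 1 in complex V, and the median log2 difference was 0.022 over the members and 0.0057 over all genes. Without replicate 5 the Gsg1l count was 10, with 3 higher (Ndufa8, Cox8a and Atp5j2) and 7 lower (among them Ndufs1, Sdha, Uqcrc1, Atp5a1, Atp5b and Atp5f1), against 3.08% and 3.50% of all genes, and the median of the members was -0.015. Of the 17 members, 6 were still called. The balance of higher over lower members in this line rested on 1 library. Without replicate 7 the count was 11, with 7 higher and 4 lower (share of all genes not given).

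Both comparisons share 11 lines of controls, and each line is among the other's controls, so they are not independent of each other. The members called in either line numbered 26, and 13 were called in both, each with the same sign: Ndufa8, Ndufb9, Uqcr11, Cox6a1, Cox6b1, Cox8a, Atp5d, Atp5e and Atp5j2 were higher, and Ndufa9, Ndufs1, Sdha and Atp5b lower. With the other of the pair left out of the fit, the counts were 27 in Tbc1d8 (15 higher, 12 lower) and 19 in Gsg1l (14 higher, 5 lower). The share of all genes called in these fits is not given here. The change in count is thus not shown to be particular to the members.

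In complex I, the largest called fall was in Ndufs1, the iron-sulphur subunit that carries electrons from the NADH end of the enzyme (chromosome 1, 63143596 to 63176833, GRCm38). Its CPM ran from 125.4 to 139 in Tbc1d8 (median 133), from 126 to 150 in Gsg1l (median 132) and from 129 to 159 in the 88 libraries of the other 11 lines (median 147). The Tbc1d8 libraries all lay below the median of the other lines but overlapped their lower end, and the highest Gsg1l library, replicate 2, was well inside the range of the other lines. The log2 difference was -0.13 ± 0.023 in Tbc1d8 (SE, adjusted p = 9.98e-06 by edgeR) and -0.11 ± 0.023 in Gsg1l (0.000450), or -0.10 without replicate 5 (0.00411). Ndufa10 was lower in Tbc1d8 by the same test (-0.11 ± 0.024, adjusted p = 0.000308) and at -0.036 ± 0.024 in Gsg1l (0.359). Ndufa9, an accessory subunit near the quinone site, was lower in both, by 0.066 and 0.069 on the log2 scale, close to the threshold (adjusted p = 0.0461 and 0.0404 by edgeR, and 0.0603 in Gsg1l without replicate 5).

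Ndufa8, a small accessory subunit of complex I (chromosome 2, 36036326 to 36049406), went the other way. It had 63.5 to 72.5 CPM in Tbc1d8 (median 67.2), 60.5 to 76.2 in Gsg1l (median 67.1) and 56.2 to 71.1 in the other 11 lines (median 61.6). All Tbc1d8 libraries were above the median of the other lines, with overlap. The log2 difference was 0.12 ± 0.026 in Tbc1d8 (SE, adjusted p = 0.000758 by edgeR) and 0.12 ± 0.026 in Gsg1l (0.00103), or 0.091 without replicate 5 (0.0250). Ndufb9 was 0.074 higher in Tbc1d8 (adjusted p = 0.0201) and 0.070 in Gsg1l (0.0317), or 0.044 without replicate 5 (0.271). Ndufa2 was higher in Tbc1d8 alone by that test (0.12 ± 0.035, 0.0154), with 0.061 ± 0.035 in Gsg1l (0.283), and whether the lines differ in it was not tested. Ndufv3 (0.095), Ndufa3 (0.091) and Ndufb8 (0.076) passed in Gsg1l, and none of these 3 did without replicate 5. The core subunits Ndufs3, Ndufs7, Ndufs8, Ndufv1 and Ndufv2 passed in neither line.

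In complex II, the catalytic flavoprotein Sdha (chromosome 13, 74322254 to 74350280) had 369 to 399 CPM in Tbc1d8 (median 381), 359 to 423 in Gsg1l (median 385) and 384 to 427 in the other 11 lines (median 405). The Tbc1d8 median was below the lowest library of the other lines, while the ranges overlapped. For Sdha the log2 difference was -0.079 ± 0.015 in Tbc1d8 (SE, adjusted p = 2.87e-05 by edgeR) and -0.056 ± 0.014 in Gsg1l (0.00513), or -0.061 without replicate 5 (0.00685). Sdhb, the iron-sulphur partner of Sdha in the same enzyme, was higher in Tbc1d8 by 0.059 ± 0.021 (adjusted p = 0.0462) and at 0.051 ± 0.021 in Gsg1l (0.0984). Sdhc and Sdhd passed in neither line, and the Sdhb call in Tbc1d8 was lost when any of 7 of its 8 libraries was left out (adjusted p up to 0.144).

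In complex III, 1 member was called in each direction in Tbc1d8. Uqcrc1, a core protein (chromosome 9, 108936633 to 108949623), had 183 to 210 CPM in Tbc1d8 (median 192), 184 to 227 in Gsg1l (median 193) and 181 to 220 in the other lines (median 205). All 3 ranges overlapped widely. It was lower in Tbc1d8 (-0.073 ± 0.022, adjusted p = 0.0176 by edgeR) and at -0.044 ± 0.022 in Gsg1l (0.204), where it passed without replicate 5 (-0.073, 0.0289). Uqcr11, a small accessory subunit, had 42.99 to 46.7 CPM in Tbc1d8, 38.03 to 58.1 in Gsg1l and 36.04 to 48.4 in the others. It was 0.10 ± 0.034 higher in both lines (adjusted p = 0.0280 and 0.0332), but 0.037 in Gsg1l without replicate 5 (0.550). Cyc1 and Uqcrfs1 passed in neither line.

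In complex IV, Cox8a (chromosome 19, 7215153 to 7217616) had the largest called rise in Gsg1l. It had 255 to 294 CPM in Tbc1d8 (median 276), 244 to 348 in Gsg1l (median 281) and 202 to 285 in the other 11 lines (median 247). In Tbc1d8 all 8 libraries were above that median. In Gsg1l replicate 5 was highest at 348 and replicate 2, at 244, was the single library below it. On the log2 scale Cox8a differed by 0.15 ± 0.028 in Tbc1d8 (SE, adjusted p = 4.34e-05 by edgeR) and 0.19 ± 0.028 in Gsg1l (3.86e-07), or 0.15 without replicate 5 (0.000116). Cox6a1 was 0.097 ± 0.026 higher in Tbc1d8 (0.00566) and 0.12 ± 0.026 in Gsg1l (0.000458), or 0.070 without replicate 5 (0.0528). Cox6b1, which sits at the interface of the enzyme dimer, was 0.068 higher in Tbc1d8 (0.0261) and 0.095 in Gsg1l (0.00145), or 0.064 without replicate 5 (0.0540). Cox4i1 passed in Gsg1l with all libraries (0.069, 0.00729) and not without replicate 5 (0.037, 0.206).

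Cox6a2, the heart and muscle isoform, had the largest called fall of any member. It had 5.41 to 6.63 CPM in Tbc1d8 (median 5.67), 4.83 to 8.34 in Gsg1l (median 6.44) and 4.76 to 8.93 in the other 11 lines (median 7.08). The log2 difference was -0.25 ± 0.063 in Tbc1d8 (SE, adjusted p = 0.00386 by edgeR) and -0.12 ± 0.062 in Gsg1l (0.196). Among the other 11 lines the mean was lowest in Dach1 at 6.28 CPM and highest in Morf4l1 at 7.48. Summed interneuron markers (6 of 6 genes found) were at 894 to 1009 CPM in Tbc1d8 (median 957) and 846 to 1073 in the other 11 lines (median 980), and muscle markers (7 of 7 found) at 13.6 to 15.9 and 11.99 to 17.6. The part of these cell types in the Cox6a2 values was not tested. The X-linked subunit Cox7b was lower in Tbc1d8 (-0.071 ± 0.022, 0.0175) and at -0.0017 ± 0.021 in Gsg1l (0.983).

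In complex V, Atp5j2 (chromosome 5, 145183698 to 145192062) had the smallest p of all members in the F-test and in Tbc1d8. It had 65.1 to 73.4 CPM in Tbc1d8 (median 68.3), 58.1 to 80.1 in Gsg1l (median 65.5) and 53.1 to 73.0 in the other 11 lines (median 60.0). The lowest Tbc1d8 library was above the highest mean of any of those lines, 64.2 in Dach1, while single libraries overlapped. Its difference on the log2 scale was 0.18 ± 0.029 in Tbc1d8 (SE, adjusted p = 1.41e-06 by edgeR) and 0.14 ± 0.029 in Gsg1l (0.000495), or 0.096 without replicate 5 (0.0291). The small F1 subunits Atp5d and Atp5e were higher in both lines (0.094 and 0.10 in Tbc1d8, 0.081 and 0.12 in Gsg1l), and neither passed in Gsg1l without replicate 5.

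The alpha and beta subunits of F1 were lower in Tbc1d8. Atp5b (chromosome 10, 128083273 to 128090391) had 893 to 981 CPM in Tbc1d8 (median 941), 922 to 1053 in Gsg1l (median 947) and 917 to 1089 in the other 11 lines (median 1014). All 8 Tbc1d8 libraries and 7 of 8 of Gsg1l were below that median. Atp5b differed on the log2 scale by -0.10 ± 0.018 in Tbc1d8 (SE, adjusted p = 1.89e-05 by edgeR) and -0.067 ± 0.018 in Gsg1l (0.00729), or -0.085 without replicate 5 (0.00122). Its partner Atp5a1 was lower in Tbc1d8 (-0.091 ± 0.019, 0.000212) and at -0.050 ± 0.019 in Gsg1l (0.0701). Within the F1 part of ATP synthase, the alpha and beta transcripts were thus lower and the delta and epsilon transcripts higher in Tbc1d8. The gamma transcript, Atp5c1, passed in neither line (0.0081 in Tbc1d8, adjusted p = 0.867 by edgeR, and 0.027 in Gsg1l, 0.443). The c-ring genes Atp5g1, Atp5g2 and Atp5g3 passed in neither line.

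**Figure D4:**
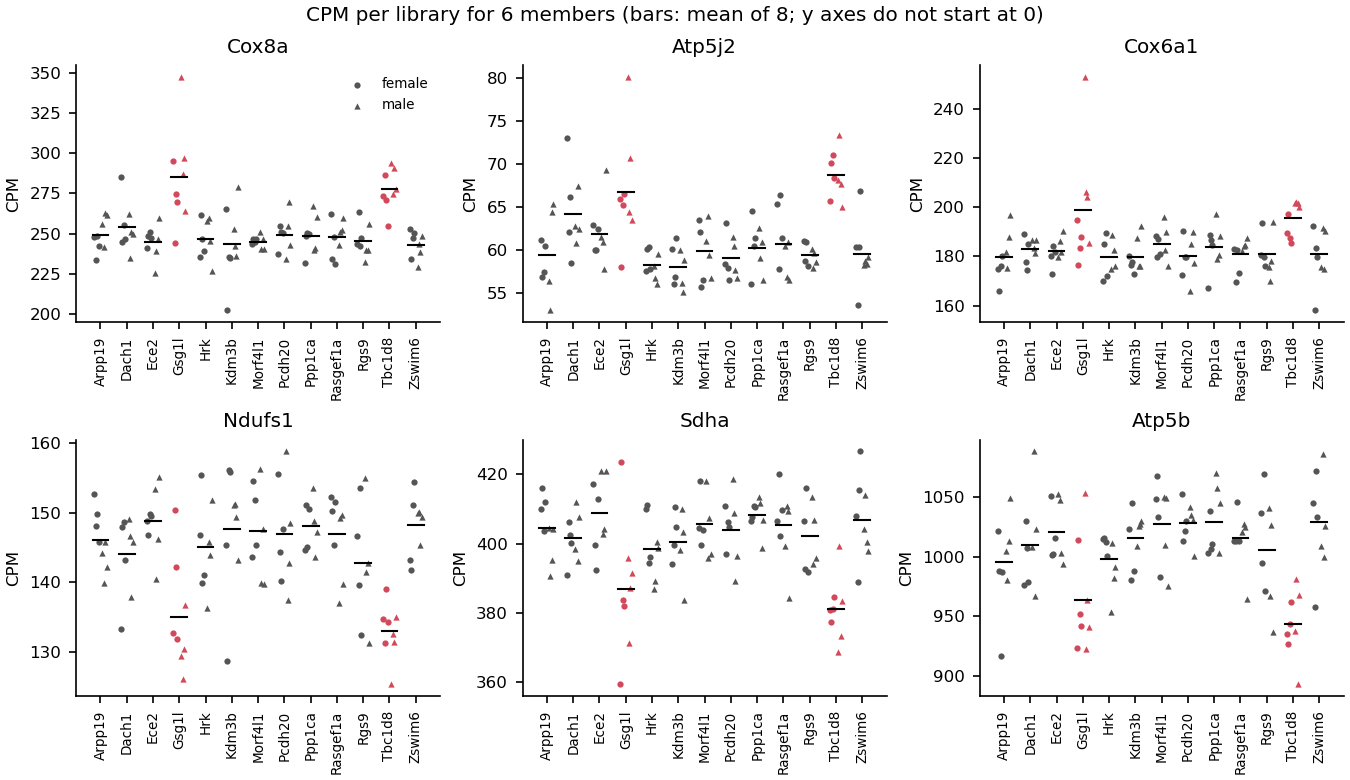
CPM per library of Cox8a, Atp5j2, Cox6a1, Ndufs1, Sdha and Atp5b in each line, circles for females and triangles for males, with bars at the mean of 8 and y axes that do not start at 0. Tbc1d8 and Gsg1l, in red, are high in the upper row and low in the lower row, and the highest Cox8a, Atp5j2 and Cox6a1 values are those of Gsg1l replicate 5.

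Within Tbc1d8 the libraries moved together. Each of the 8 was above the median of the other 11 lines for 10 or 11 of the 11 higher members and below it for 9 to 11 of the 11 lower ones. In Gsg1l replicate 2, a female, did not share the values of the line: it was above that median for 5 of the 13 higher members and below it for 1 of the 4 lower ones, while the other 7 libraries had 10 to 13 and 3 or 4. Without replicate 2 the count in Gsg1l was 19 members, 13 higher and 6 lower (share of all genes not given). These members were chosen by the same libraries, so the counts are a description.

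Direction went with transcript length within the chain. Lengths were taken from the ratio of deposited counts to deposited FPKM. In Tbc1d8 the 11 higher members had a median length of 545 bases (414 for Atp5e to 1073 for Sdhb) and the 11 lower ones 1606 (532 for Ndufb3 to 2927 for Ndufs1). In Gsg1l the 13 higher members had a median of 545 bases and the 4 lower ones 2369. Of the 40 members under 750 bases, 9 were higher and 2 lower in Tbc1d8, and 10 and 0 in Gsg1l. Of the 19 members in the longest of 3 length classes (Sdhd, at 1285 bases, and longer), 0 were higher and 7 lower in Tbc1d8, and 1 and 4 in Gsg1l.

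The same classes over all genes showed part of this. Among 657 genes under 750 bases, 7.76% were higher and 1.67% lower in Tbc1d8, and 8.83% and 1.07% in Gsg1l. Among 13780 genes of the longest class the shares were 5.595% and 7.37%, and 4.33% and 6.20%. Across the 79 members, which share libraries and depth, Spearman's rho between length and log2 difference was -0.43 in Tbc1d8 and -0.43 in Gsg1l (-0.36 without replicate 5), against -0.086 and -0.21 across 15723 genes. In the other lines rho over the members ran from -0.15 (Dach1) to 0.38 (Morf4l1).

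With a trend over transcript length taken out of every library, a setting chosen after seeing the data, the counts were similar and the balance shifted. In Tbc1d8 23 members then passed, 6 higher and 17 lower, and in Gsg1l 19, 5 higher and 14 lower. Of all 15723 genes, 914 were higher and 1115 lower in Tbc1d8 under that setting (12.9% called in all), and 651 and 881 in Gsg1l (9.74%). Ndufa8, Cox6a1, Cox8a and Atp5j2 were still higher, and Ndufa10, Ndufa9, Ndufb3, Ndufs1, Sdha, Uqcrc1, Uqcrh, Atp5a1, Atp5b and Atp5f1 were among those lower, in both lines. The median log2 difference of the members was -0.015 in Tbc1d8 and -0.024 in Gsg1l under that setting, and that of all genes 0.0033 and 0.0017. The cause of the relation to length was not tested.

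**Figure D5:**
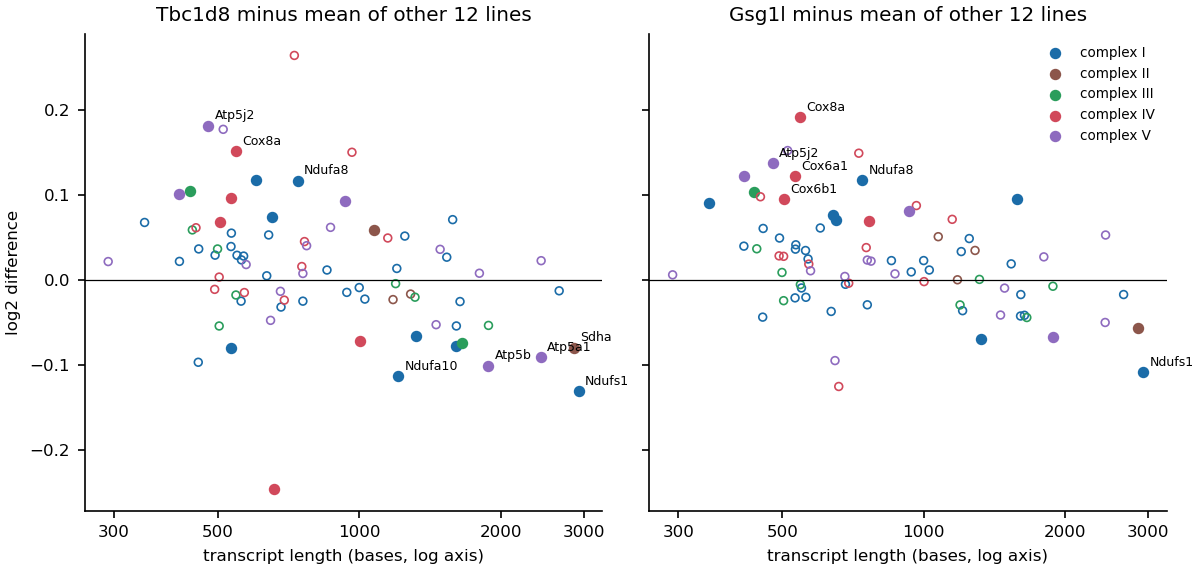
Log2 difference from the mean of the other 12 lines against transcript length in bases (log axis) for the 79 members in Tbc1d8 (left) and Gsg1l (right), coloured by complex, filled where the adjusted p was under 0.05. Filled points lie above 0 mostly at short lengths (median 545 bases) and below 0 mostly at long ones.

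Genes around the chain were counted from lists of assembly factors, carriers, regulators and the tricarboxylic acid cycle, which feeds NADH and succinate to complexes I and II. Of 13 tricarboxylic acid cycle genes, 7 were lower and 1 higher in Tbc1d8 and 6 lower in Gsg1l. Over all genes 6.79% were lower and 5.66% higher in Tbc1d8, and 5.58% and 4.86% in Gsg1l. In complex II, which belongs to both cycle and chain, Sdha was lower in both lines. Sdhb was higher in Tbc1d8 (0.059, adjusted p = 0.0462 by edgeR) and at 0.051 in Gsg1l (0.0984), and Sdhc and Sdhd passed in neither. The Gsg1l counts of all these lists include replicate 5. Dlst, the transferase of the oxoglutarate dehydrogenase complex, was at 135 ± 6.78 CPM in Tbc1d8 (SD, n = 8), 134 ± 5.19 in Gsg1l (n = 8) and 145 ± 4.53 in the other 11 lines (n = 88). Its log2 difference by edgeR was -0.085 in Tbc1d8 (adjusted p = 0.000370) and -0.098 in Gsg1l (6.32e-05). Suclg1, of succinyl-CoA ligase, was lower by 0.081 and 0.087 on the log2 scale. Suclg2, the GTP-specific partner, was higher in Tbc1d8 (0.12, 0.0420). Median log2 differences of the list were -0.059 in Tbc1d8 and -0.029 in Gsg1l.

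Assembly factors of complexes I (14 tested) and II (2 tested) had 0 members called in either line by edgeR, with 1 and 0 at an unadjusted p under 0.05 in Tbc1d8 and 4 and 0 in Gsg1l. Among 5 factors of complex III, Ttc19, which acts on the Rieske protein, was lower in both lines (-0.16 ± 0.025, adjusted p = 1.08e-06, and -0.15 ± 0.025, 3.23e-06), with 97.8 ± 3.48 CPM in Tbc1d8 and 98.1 ± 7.01 in Gsg1l (SD, n = 8) against 110.2 ± 4.79 in the other lines (n = 88). Uqcc2, a factor for cytochrome b, was higher (0.13 and 0.12). Of 22 factors of complex IV, 2 were higher and 2 lower in Tbc1d8 and 3 and 3 in Gsg1l, among them Coa5 (0.074 and 0.085 higher) and the copper chaperone Sco2 (-0.28 ± 0.070 in Gsg1l, 0.00366, and -0.18 in Tbc1d8, 0.0785). Atpaf1, an assembly factor of F1, was lower in Tbc1d8 (-0.13, 0.0137), as were Atp5a1 and Atp5b. Of 13 genes for cytochrome c and coenzyme Q, 0 passed in Tbc1d8 (2 at an unadjusted p under 0.05 by edgeR) and 1 in Gsg1l, the cytochrome c gene Cycs (-0.11, 0.0475). For Tbc1d8 the same test called 5.66% of the 15723 genes on the higher side and 6.79% on the lower. For Gsg1l these background shares were 4.86% and 5.58%. Whether any of these lists departed from the background was not tested.

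Of 13 regulators, 4 were lower in Tbc1d8 (Tfb2m, Tfam, Esrrg and Ppargc1b) and 2 in Gsg1l (Ppargc1b and Tfam), and 0 were higher. Over all genes 6.79% were lower in Tbc1d8 and 5.58% in Gsg1l, and 5.66% and 4.86% were higher. Tfam, which packages and transcribes mitochondrial DNA, was at 31.2 ± 1.36 CPM in Tbc1d8 and 31.6 ± 2.09 in Gsg1l (SD, n = 8) against 33.5 ± 1.28 (n = 88), with log2 differences of -0.093 ± 0.023 (adjusted p = 0.00196 by edgeR) and -0.075 ± 0.023 (0.0181). Ppargc1b, a coactivator of respiratory genes, was lower by 0.18 and 0.23 on the log2 scale. The 13 mitochondrially encoded subunits, read from the Ensembl FPKM, summed to a median of 29086 in Tbc1d8 (27562 to 32919), 28992 in Gsg1l (28203 to 32873) and 28919 in the other 11 lines (24100 to 34051), so both lines lay within the range of the others.

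Summed cell-type markers overlapped between these groups. Neuron markers summed to medians of 15357 CPM in Tbc1d8, 15495 in Gsg1l and 15128 in the other 11 lines, astrocyte markers to 6015, 5916 and 5972, and oligodendrocyte markers to 2007, 1937 and 2175. Of 8 neuron markers 3 passed the line F-test, of 6 interneuron markers 1, and of 7 astrocyte, 7 oligodendrocyte, 7 microglia and 7 endothelial markers 0. Microglia markers summed to 308, 320 and 301 CPM, endothelial ones to 224, 218 and 220, striatal ones to 197, 194 and 187 (2 of 7 passed), choroid plexus ones to 4.30, 3.33 and 3.49 (2 of 6 passed) and erythroid ones to 1.06, 0.983 and 0.852 (2 of 5 at 0). With scores of 5 marker lists as covariates, 21 members were called in Tbc1d8 (12 higher, 9 lower) and 16 in Gsg1l (11 higher, 5 lower). The labels give plate 1 for 96 libraries (6 of Tbc1d8 and 7 of Gsg1l). Within it the counts were 12 (5 higher, 7 lower) and 14 (11 higher, 3 lower). Shares of all genes called under these settings are not given here.

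Between the sexes as labelled, few members differed. Xist and Y-linked reads went against the label in Rasgef1a replicates 3 and 8 and Rgs9 replicate 3, which were kept as labelled here. Counts of lines given below include these libraries. Of 79 members 2 were higher and 3 lower in females, against 4.07% of all genes higher and 4.5% lower, and 4 of the 5 belonged to complex IV. The median female minus male log2 difference was 0.0025 over the members and 0.00016 over all genes. In complexes I, II and III 0 members passed by edgeR, with 3, 1 and 1 at an unadjusted p under 0.05.

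Cox5a, a subunit on the matrix side of cytochrome c oxidase (chromosome 9, 57521274 to 57532426), was higher in females in all 13 lines. It had 83.5 to 101 CPM in the 52 females (median 92.9) and 79.8 to 105 in the 52 males (median 89.5), with wide overlap. The log2 difference was 0.049 ± 0.014 (SE, adjusted p = 0.0168 by edgeR). Atp5s was higher in females in 12 of 13 lines, with 10.6 to 15.1 CPM in females (median 12.96) and 10.7 to 14.4 in males (median 12.1), a log2 difference of 0.084 ± 0.020 (0.00241).

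Cox7a2l (-0.051 ± 0.014, adjusted p = 0.0134) and Cox6a1 (-0.047 ± 0.014, 0.0216) were lower in females, each in 11 of 13 lines, and Cox4i1 (-0.034 ± 0.0099, 0.0176) in 10 of 13 by the same edgeR fit. Cox6a1 had 158 to 197 CPM in females (median 180) and 166 to 253 in males (median 185), the highest male being Gsg1l replicate 5. Without that library 8 members passed, 5 higher and 3 lower, with Ndufa10, Sdhc and Uqcr11 added on the higher side. The sex difference did not depend detectably on the line: 0 members passed the interaction test, 1 was at an unadjusted p under 0.05 (Ndufb8), and 0.0382% of all genes passed.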

How the data were processed

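RNA from mouse cortex was made into libraries with a stranded kit, per the labels' protocols. Read counts per RefSeq gene are the authors' deposited values, and the authors also deposited FPKM for RefSeq and Ensembl genes, which were used here for levels. STAR 2.7.3a and HTSeq 0.10.0 are named in the submitters' processing notes. Counting mode and strand setting are not given in the sources used here. The Ensembl counts were not used here.

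Counts of 15723 genes were scaled by TMM and tested with edgeR 4.0.16 (quasi-likelihood test, line and sex as terms, Benjamini-Hochberg adjustment, threshold 0.05) in R 4.3.3. The tests were of all lines at once, of a line against the 12 others averaged, of the sexes and of line by sex. The SE of a log2 difference was its size divided by the square root of F, and log2 CPM used a prior count of 2. Depth was 3.39 to 33.5 M reads per library. Replicates are separate mice per the labels.

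Alternatives used DESeq2 1.42.0, limma 3.58.1 on log2(FPKM + 0.1) and log2(FPKM + 1), other filters, plates and libraries. The test was checked on simulated counts, where 0.0718% of unchanged genes were called in the Tbc1d8 comparison. Each gene was drawn independently there, so false calls from shifts shared across the genes of a library were not tested. Promoter letters came from RefSeq windows, and gene positions from GENCODE for 78 members. Members and lists were chosen with earlier results of these data known. Values in full are given for the 2 smallest p per complex, the highest and lowest called member per line, the largest sex differences, the highest and lowest levels per complex, tissue isoforms and core subunits. Other called members were named after their values were seen. The values of 1 counted member are not reported here. Replicate numbers shared by a female and a male of a line were checked for pairing.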

Additional observations from a re-analysis of the deposited data

Results flagged for a closer look

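In 195 groups of 8 libraries (65 of complex scores and 130 of member CPM), 16 held a library whose gap to the others exceeded the 95% critical value of Dixon's test. Chance flags about 5% of groups, or 1 in 20. Scores are medians over a complex's members of log2 CPM minus the gene's mean.

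Gsg1l replicate 5 had 5 of the 16. Its complex I score was 0.22 against -0.077 to 0.063 in the other libraries of the line, its complex III score 0.20 (0.195) against -0.083 to 0.017, and its complex V score 0.21 against -0.042 to 0.041. Its Uqcr11 level was 58.1 CPM against 38.03 to 46.1, and its Cox6a1 level 253 CPM against 176 to 206.

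Ece2 replicate 8 had 3. Its complex III score was 0.11 against -0.022 to 0.033, its Uqcr11 level 48.4 CPM against 37.9 to 42.04, and its Atp5j2 level 69.3 CPM against 57.8 to 62.9. In complex III, Tbc1d8 replicate 7 was low at -0.093 against -0.014 to 0.052. Dach1 replicate 1 was high in complex I at 0.073 against -0.013 to 0.024.

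The others were single members. Ndufa8 was at 71.1 CPM in Arpp19 replicate 8 against 56.2 to 62.1. Uqcrc1 was at 181 CPM in Hrk replicate 5 against 197 to 208, and at 215 in Kdm3b replicate 7 against 199 to 206. Ndufs1 was at 129 CPM in Kdm3b replicate 2, the library with 3.39 M reads, against 143 to 156. Sdha was at 399 CPM in Ppp1ca replicate 7 against 407 to 413. Atp5b was at 964 CPM in Rasgef1a replicate 8 against 1013 to 1046.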

How the results depend on the processing

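Within plate 1 the members called between lines fell from 17 to 11 and those in Tbc1d8 from 22 to 12. Leaving out each library in turn gave 16 to 22 members in Tbc1d8, 10 to 19 in Gsg1l and 0 in Dach1. Without Gsg1l replicate 5, Gsg1l had 10 members and the sex comparison 8 in place of 5, and with the length trend taken out the sex comparison had 9. The cause of these shifts was not tested. Beyond the shares given above, those of all genes called under each setting are not given. No shift is thus shown to be particular to the members. DESeq2 called 19 members between lines, 23 in Tbc1d8, 18 in Gsg1l and 5 between the sexes. The log2 difference of no single called member changed sign under the settings run, but the balance over members did: the median in Gsg1l went from 0.022 (13 higher, 4 lower) to -0.015 without replicate 5 (3 and 7) and -0.024 with the length trend taken out (5 and 14), and in Tbc1d8 from 0.014 (11 and 11) to -0.015 with that trend out (6 and 17). In all 22 settings 11 members kept their call in Tbc1d8 (among them Ndufa10, Ndufa8, Ndufs1, Sdha, Cox6a1, Cox6a2, Cox8a, Atp5a1, Atp5b and Atp5j2) and 5 in Gsg1l (Ndufa8, Ndufs1, Cox8a, Atp5b and Atp5j2), and in all 14 settings the 5 sex members did. With the number shared by 1 female and 1 male of a line as a replicate block, 5 members passed between the sexes. Over 52 such pairs the correlation of deviations ran from -0.44 to 0.57 (median 0.039), and 23 pairs were over 0.1. Mice with unlike numbers were not compared in this way, so whether paired mice share more than a number was not tested. A mean of 0.5 CPM gave 81 members and one of 5 CPM gave 74. Members near 1 CPM are limited by depth. The interaction was not run with DESeq2, FPKM, marker scores or the length trend.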

Other observations

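Among members below the threshold in both lines, the largest log2 differences in Tbc1d8 were those of low genes. Cox4i2 was at 0.26 ± 0.11 (SE, adjusted p = 0.0869 by edgeR), Atp5l, a membrane subunit of ATP synthase at 5.44 FPKM, at 0.18 ± 0.065 (0.0567), and Ndufa4l2 at 0.15 ± 0.085 (0.265). In Gsg1l they were at 0.15, 0.15 and 0.088.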
